A study of Mus musculus with 5 samples.

Results

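The Hoxd cluster with its neighbour Evx2 comprises 10 genes on mouse chromosome 2, namely Evx2, Hoxd13, Hoxd12, Hoxd11, Hoxd10, Hoxd9, Hoxd8, Hoxd4, Hoxd3 and Hoxd1. DNA methylation was described at the CpGs of this cluster between 74.485 and 74.61 Mb of chromosome 2 (build mm9). A CpG was taken as a member when it lay in that interval and outside the sequence CCGG. These were 669 of the 598336 such CpGs read in any library on the autosomes and the X chromosome, and 147 of 162854 were read in every library.

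The libraries were made by reduced representation bisulfite sequencing (RRBS), in which MspI cuts DNA at CCGG, short fragments are kept and bisulfite turns unmethylated C into a base read as T. The study compared mouse embryonic stem (ES) cells of 5 genotypes, Fbxl10 T/T, Ring1B -/-, Eed -/-, Ezh2 -/- and wild type (WT), with 1 library each. Ring1B -/-, Eed -/- and Ezh2 -/- are called the Polycomb mutants. The Fbxl10 T/T and WT cells were both labelled as strain C57BL/6J, grown in serum with leukemia inhibitory factor (LIF) on feeder fibroblasts that were removed before use, and harvested at passage 17. The Ring1B -/-, Eed -/- and Ezh2 -/- cells were grown in serum with LIF, and their labels give no strain, passage or feeder layer. The labels do not describe the T allele of Fbxl10 or how the knockout lines were made, and whether a line is a single clone is not given there. The tables hold methylation and no expression, so genotype and cell type rest on the labels. With 1 library per genotype no difference has a replicate check, and genotype and library cannot be told apart. In the Polycomb mutants the line, strain and culture cannot be told apart from genotype either.

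Hox genes encode homeodomain transcription factors that give cells their position along the body axis and the limb, and they lie in clusters in the order in which they are used. In ES cells these clusters are silent, rich in unmethylated CpGs and covered by Polycomb complexes. FBXL10, also called KDM2B, binds unmethylated CpGs through a zinc finger of the CXXC type and brings a variant of Polycomb repressive complex PRC1 to CpG islands. RING1B is the ubiquitin ligase of PRC1, while EZH2 is the histone methyltransferase of PRC2 and EED a core subunit of PRC2.

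The sequences upstream of 4 starts are shown to let the density of CpGs around the measured values be seen. They are the 250 bases before each start in RefSeq, build GRCm38.p6, written 5′ to 3′ with every CG in capitals.
Hoxd13 (chr2:74667975-74668224, + strand): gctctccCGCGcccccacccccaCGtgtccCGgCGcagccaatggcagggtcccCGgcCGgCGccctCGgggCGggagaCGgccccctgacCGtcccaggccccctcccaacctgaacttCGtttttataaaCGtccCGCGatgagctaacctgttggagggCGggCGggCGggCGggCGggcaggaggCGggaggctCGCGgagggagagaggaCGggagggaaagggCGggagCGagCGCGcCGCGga
Hoxd11 (chr2:74682073-74682322, + strand): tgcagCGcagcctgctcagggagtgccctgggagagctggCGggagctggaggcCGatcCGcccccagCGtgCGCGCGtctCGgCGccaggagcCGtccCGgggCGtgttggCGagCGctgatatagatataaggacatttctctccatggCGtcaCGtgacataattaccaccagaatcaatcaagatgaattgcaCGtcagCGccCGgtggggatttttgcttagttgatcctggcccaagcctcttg
Hoxd9 (chr2:74697513-74697762, + strand): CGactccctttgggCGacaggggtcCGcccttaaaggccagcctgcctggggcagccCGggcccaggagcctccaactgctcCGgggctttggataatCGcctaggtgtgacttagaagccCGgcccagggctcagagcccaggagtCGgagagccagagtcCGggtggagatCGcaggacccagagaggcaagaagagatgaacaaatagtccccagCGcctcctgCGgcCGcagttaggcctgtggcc
Hoxd1 (chr2:74762730-74762979, + strand): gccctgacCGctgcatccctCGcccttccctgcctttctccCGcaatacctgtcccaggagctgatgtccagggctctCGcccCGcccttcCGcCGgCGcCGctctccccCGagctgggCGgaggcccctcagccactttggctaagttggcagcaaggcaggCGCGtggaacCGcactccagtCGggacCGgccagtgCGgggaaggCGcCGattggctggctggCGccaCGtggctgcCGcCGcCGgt
CG occurred 31 times upstream of Hoxd13, 20 times upstream of Hoxd11, 13 times upstream of Hoxd9 and 24 times upstream of Hoxd1. Upstream of the starts not shown, it occurred 20 times for Hoxd10, 10 for Hoxd12, 12 for Hoxd3 and 3 for Hoxd4. The median over the 32851 RefSeq promoters of the same length was 6, and 92.1% of them held at least 1 CG on this palindromic motif. The letters CCGG, also a palindrome, occurred 3, 2, 4 and 3 times upstream of Hoxd13, Hoxd11, Hoxd9 and Hoxd1 and in 47.1% of all promoters. The CpGs that could be read within the bases shown numbered 4 for Hoxd13, 12 for Hoxd11, 4 for Hoxd9 and 18 for Hoxd1. Upstream of Hoxd11 they stood at 60.0% methylation in Fbxl10 T/T and 1.75% in WT, and upstream of Hoxd1 at 61.2% in Fbxl10 T/T and 1.80% in WT. Upstream of Hoxd13 the values were 30.2% in Fbxl10 T/T and 0% of 265 reads in WT, and upstream of Hoxd9 they were 42.1% in Fbxl10 T/T and 6.27% in WT.

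Further stretches of 30 bases show CpGs at both ends of the range found in the cluster. They were spelled from the cytosine contexts of the deposited tables in build mm9, with every CG in capitals. The first is from the window with the smallest difference between Fbxl10 T/T and WT, and the second from the window beside the Hoxd3 start. The third lies just downstream of the Hoxd11 start.
Hoxd8 side (chr2:74543257-74543286, + strand): gcCGCGgggcaggtCGccCGggCGtcCGCG
Hoxd3 side (chr2:74550333-74550362, + strand): ccacagtcCGggcCGacCGccCGcagttCG
Hoxd11 side (chr2:74521229-74521258, + strand): gCGCGgggCGCGggcCGaggggctggccCG
The Hoxd8-side stretch held 6 readable CpGs, with 4.92% of 305 reads methylated in Fbxl10 T/T and 0% of 441 reads in WT. The Hoxd3-side stretch held 4, with 16.4% of 324 reads methylated in Fbxl10 T/T and 1.14% of 700 reads in WT. The Hoxd11-side stretch held 5, with 63.2% of 95 reads methylated in Fbxl10 T/T and 2.24% of 313 reads in WT. Each stretch was picked as the one with the most CpGs of at least 10 reads in both libraries in its window. Their density of 5 to 7 CG per 30 bases thus follows from the choice and does not describe the windows.

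Depth differed strongly between the libraries. In the interval the reads at CpGs outside CCGG summed to 12828 in Fbxl10 T/T, compared with 868 in Ring1B -/-, 917 in Eed -/-, 756 in Ezh2 -/- and 26441 in WT, where a read is counted at each CpG it covers. The median was 20 reads per CpG in Fbxl10 T/T, 2 in each of Ring1B -/-, Eed -/- and Ezh2 -/-, and 38 in WT. The methylation level is the share of reads showing C among those showing C or T, and 2 libraries were compared at the CpGs read in both. Intervals are 95% Wilson intervals for levels and Newcombe intervals for differences. They cover counting error only and are too narrow, since RRBS reads without molecular identifiers are not independent molecules and 1 read can cover several CpGs.

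Methylation of the whole cluster was high in Fbxl10 T/T and low in the other 4 libraries. Over the 563 CpGs read in both, 43.6% of reads were methylated in Fbxl10 T/T (42.7 to 44.4, 12801 reads) and 7.74% in WT (7.42 to 8.07, 26157 reads), a difference of 35.8 percentage points (34.9 to 36.8). The level was 9.03% in Ring1B -/- and 7.19% in WT at the CpGs those libraries shared, a difference of 1.84 points (0.0447 to 3.98). It was 5.97% in Eed -/- and 6.54% in WT, a difference of -0.562 points (-1.98 to 1.22). It was 7.96% in Ezh2 -/- and 6.99% in WT, a difference of 0.969 points (-0.80 to 3.15). With CpGs inside CCGG kept, these differences of the Polycomb mutants were 6.95 points in Ring1B -/-, 2.65 in Eed -/- (0.753 to 4.71) and 5.08 in Ezh2 -/-. The sign in Eed -/- thus turned, as it did with the mean of CpG levels (1.21 points). At the 147 CpGs read in all 5 libraries the levels were 40.8% in Fbxl10 T/T, compared with 7.10% in Ring1B -/-, 5.17% in Eed -/-, 6.45% in Ezh2 -/- and 5.62% in WT.

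To locate the change, reads were summed in consecutive windows of 1 kb. Readable CpGs fell in 50 windows of the interval, and 26 of them had at least 5 shared CpGs and 30 reads in both Fbxl10 T/T and WT. A window was called when the levels differed by at least 20 points and the adjusted p of a two-sided Fisher's exact test, Benjamini-Hochberg over all windows of the table, was under 0.05. Such a test sets 1 library against another and says nothing of the spread within a genotype. It also counts a read at each CpG it covers as if these were independent, so its p-values are too small. In Fbxl10 T/T 23 of the 26 windows rose (88.5%), against 25.5% of the 20072 windows tested across the table. None of the 26 fell, against 2.65% across the table. The median window stood at 57.2% in Fbxl10 T/T and 5.27% in WT. The median difference was 43.7 points in the cluster and 0.306 points over all windows. Of the windows under 10% in WT, 16 of 18 rose in the cluster and 3398 of 15931 rose in the table.

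**Figure D1:**
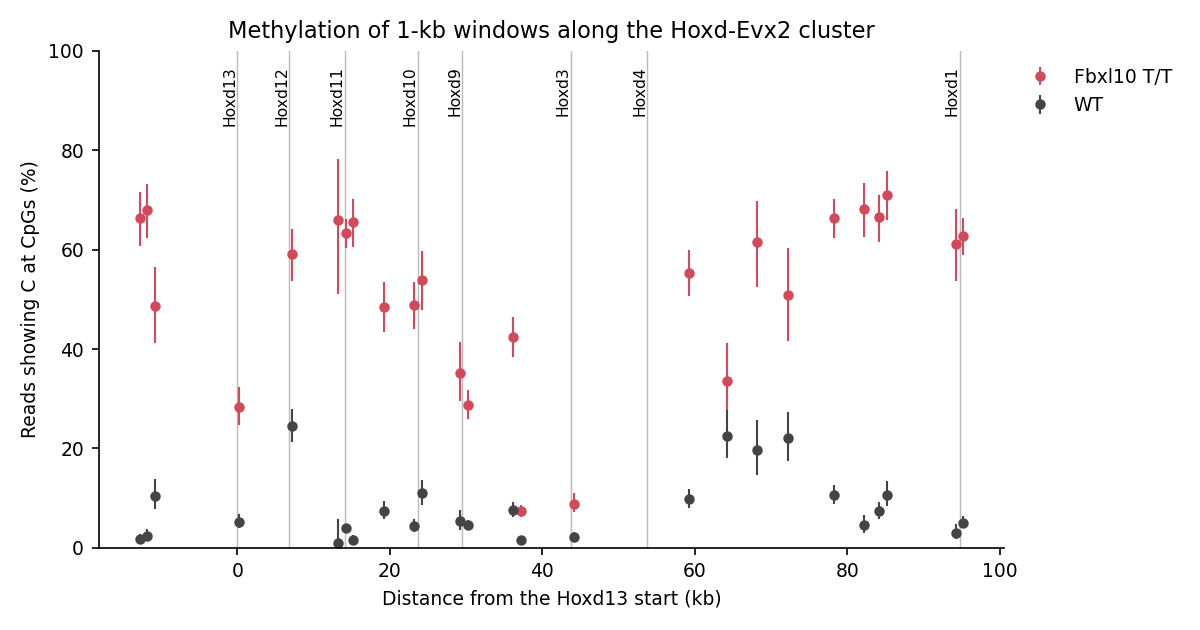
Methylation level (% of reads showing C) of the 26 tested 1-kb windows of the cluster against distance from the Hoxd13 start (kb), for Fbxl10 T/T (red) and WT (dark grey), with bars for 95% Wilson intervals and vertical lines at the placed gene starts. Fbxl10 T/T lies above WT in every window, and the windows at the Gm38462 start inside Hoxd8 and at the Hoxd3 start are at 7.31% and 8.89% in Fbxl10 T/T.

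The gene starts were located by matching RefSeq promoter sequences to the bases that the tables spell. The starts of Hoxd13, Hoxd12, Hoxd11, Hoxd10, Hoxd9 and Hoxd1 matched over at least 40 bases. Hoxd3 was placed from 34 matching bases and Hoxd4 from 15 under a looser rule, and these places are less certain. Evx2 and Hoxd8 were not placed and are described by their order among the neighbours in RefSeq.

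Evx2 encodes a homeodomain protein related to even-skipped and is used together with Hoxd13 in the limb and genital buds. It lies between Lnpk and Hoxd13, and CpGs on this side of the Hoxd13 start stood at 56.8% in Fbxl10 T/T (1150 reads) and 6.87% in WT (2591 reads). At the CpGs each mutant shared with WT, the level was 10.1% in Ring1B -/- and 8.30% in WT, 4.26% in Eed -/- and 2.97% in WT, and 2.94% in Ezh2 -/- and 2.99% in WT. The Polycomb mutants had 68 to 94 reads there, and the interval of each of their differences from WT held 0. The first called window of the cluster, chr2:74493001-74494000, was at 66.3% in Fbxl10 T/T and 1.68% in WT. It rose by 64.6 points (58.9 to 69.9, adjusted p = 3.66e-127, Fisher's exact test). The window that follows, chr2:74494001-74495000, showed the largest rise of the cluster, with 68.0% in Fbxl10 T/T and 2.32% in WT. Its difference was 65.7 points (59.8 to 71.0, adjusted p = 2.03e-102, Fisher's exact test). The window at chr2:74495001-74496000 was at 48.8% in Fbxl10 T/T and 10.4% in WT and also rose. Which of these CpGs lie in Evx2 itself was not determined here.

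Hoxd13 patterns the digits and the genital tubercle. Within 1000 bases of its start, 28.8% of 545 reads were methylated in Fbxl10 T/T and 5.53% of 1048 reads in WT, a difference of 23.3 points (19.3 to 27.4). At the CpGs shared with WT the level was 3.85% in Ring1B -/- and 1.01% in WT, 19.0% in Eed -/- and 0% in WT, and 0% in Ezh2 -/- and 7.96% in WT. These mutants had only 26, 21 and 37 reads there, so that the Eed -/- value rests on 4 methylated reads. The 1-kb window holding the start rose by 23.2 points in Fbxl10 T/T (19.2 to 27.3, adjusted p = 3.89e-35, Fisher's exact test), the smallest rise among the called windows. Of its 17 CpGs with at least 10 reads in both libraries, 6 rose singly, which required 25 points and an adjusted p under 0.05, where 16.5% of single CpGs rose across the table. The levels of the 17 in Fbxl10 T/T ranged between 8.70% and 70.0%. The CpG at 70.0%, position 74506488, was not called and stood at 45.1% of 113 reads in WT. The others were at 5.0% or less in WT, so the WT levels of 5.53% and 7.96% above rest largely on that 1 CpG. CpGs with at least 10 reads in both libraries are called well-read. Neighbouring ones can share reads, so their single calls are not independent.

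Hoxd12 acts with Hoxd13 in the distal limb. Around its start 58.8% of 345 reads were methylated in Fbxl10 T/T and 25.1% of 653 reads in WT, a difference of 33.7 points (27.4 to 39.7). WT was thus higher here than around the other starts with more than 1 readable CpG. The levels were 42.9% in Ring1B -/- (7 reads) and 32.0% in WT, 14.3% in Eed -/- (21 reads) and 20.8% in WT, and 25% in Ezh2 -/- (16 reads) and 25.5% in WT. The window with the start rose by 34.6 points in Fbxl10 T/T (adjusted p = 1.41e-25, Fisher's exact test).

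Hoxd11 shapes the forearm together with Hoxa11 and also acts in the axial skeleton. Within 1000 bases it had, as a value, the highest level in Fbxl10 T/T of the placed starts, with 64.0% of 1469 reads over 82 CpGs, against 3.25% of 3720 reads in WT. The difference was 60.7 points (58.2 to 63.2). Levels were 4.40% in Ring1B -/- and 1.43% in WT, 1.11% in Eed -/- and 1.47% in WT, and 1.19% in Ezh2 -/- and 2.03% in WT, each on 84 to 91 reads of the mutant. The level in Fbxl10 T/T and those of the other libraries did not overlap in their intervals. The window with the start, chr2:74520001-74521000, rose by 59.4 points (56.3 to 62.4), and 39 of its 45 well-read CpGs rose singly. The windows on either side were among the 5 largest rises of the cluster. The upstream one, chr2:74519001-74520000, was at 65.9% of 44 reads in Fbxl10 T/T and 1.05% of 95 reads in WT (adjusted p = 3.78e-17, Fisher's exact test). The downstream one, chr2:74521001-74522000, was at 65.5% in Fbxl10 T/T and 1.55% in WT (adjusted p = 1.45e-148, Fisher's exact test), and all of its 15 well-read CpGs rose singly.

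Hoxd10 and Hoxd9 act in the lumbosacral spinal cord and the proximal limb. Around the Hoxd10 start the level was 50.3% of 626 reads in Fbxl10 T/T and 6.87% of 1339 reads in WT, a difference of 43.4 points (39.3 to 47.5). It was 12.5% in Ring1B -/- and 7.12% in WT, 3 of 30 reads in Eed -/- and 7.80% in WT, and 6.38% in Ezh2 -/- and 7.52% in WT, with 56 reads in Ring1B -/- and 47 in Ezh2 -/-. The window with the start rose by 44.5 points in Fbxl10 T/T (39.5 to 49.4, adjusted p = 1.57e-79, Fisher's exact test), and 18 of its 19 well-read CpGs rose singly.

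Around the Hoxd9 start the level in Fbxl10 T/T was lower, with 30.1% of 1172 reads, against 4.69% of 2365 reads in WT, a difference of 25.4 points (22.7 to 28.2). It was 4.03% in Ring1B -/- and 3.17% in WT, and 2.91% in Eed -/- and 3.64% in WT. In Ezh2 -/- it was 14.6% of 82 reads against 3.25% in WT, a difference of 11.4 points (5.25 to 20.6). The windows at chr2:74535001-74536000, which holds the start, and chr2:74536001-74537000 rose by 29.95 and 24.3 points in Fbxl10 T/T (adjusted p = 1.87e-24 and 7.55e-69, Fisher's exact test). In the second of these, 10 of 28 well-read CpGs rose singly. In Ezh2 -/- the second window was at 17.2% of 58 reads and in WT at 2.27%. Its difference of 15.0 points (7.31 to 26.7) lay under the 20 points required, with adjusted p = 0.000172 in Fisher's exact test.

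**Figure D2:**
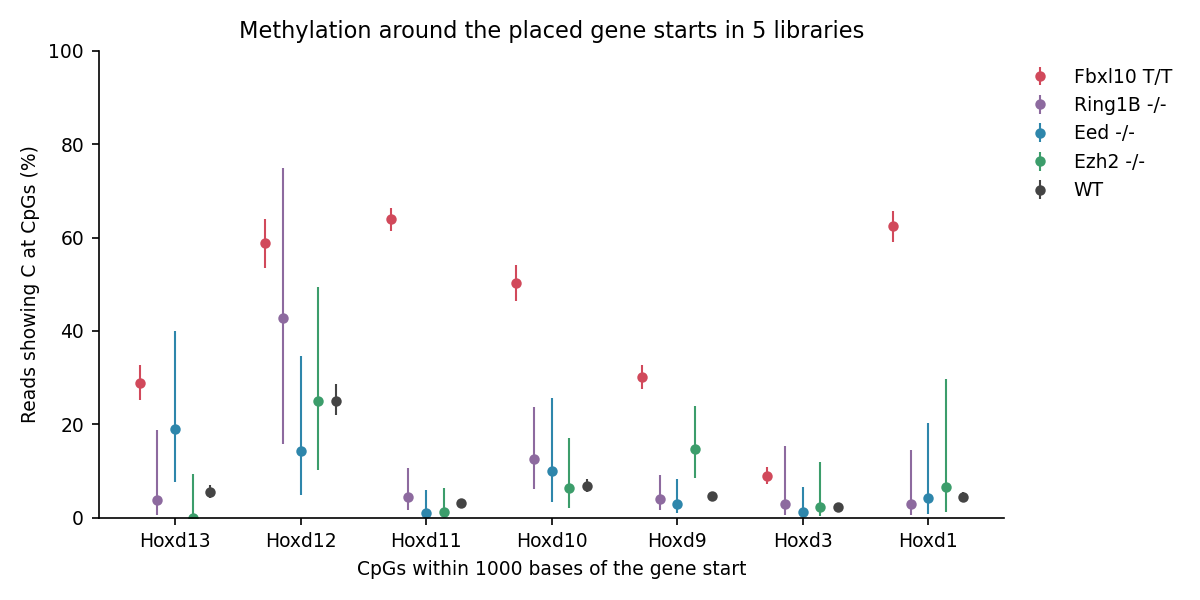
Methylation level (% of reads showing C) at CpGs within 1000 bases of 7 placed gene starts, in cluster order, for Fbxl10 T/T, Ring1B -/-, Eed -/-, Ezh2 -/- and WT, with bars for 95% Wilson intervals and WT taken at the CpGs shared with Fbxl10 T/T. Fbxl10 T/T is at 50.3% or more for Hoxd12, Hoxd11, Hoxd10 and Hoxd1, at 28.8% for Hoxd13, 30.1% for Hoxd9 and 8.89% for Hoxd3, and Hoxd4 is left out with 1 readable CpG.

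Hoxd8, which acts broadly along the trunk, lies between Hoxd9 and Hoxd3. The CpGs between the starts of those genes stood at 20.3% in Fbxl10 T/T (3657 reads) and 4.48% in WT (6804 reads). At the CpGs each mutant shared with WT, the level was 2.79% in Ring1B -/- and 3.54% in WT, and 4.42% in Eed -/- and 2.52% in WT. It was 10.3% of 263 reads in Ezh2 -/- and 3.79% in WT, a difference of 6.48 points (3.31 to 10.8), and these reads include those of the Hoxd9 window of Ezh2 -/- given above. A start of the long noncoding RNA gene Gm38462, which RefSeq lists inside Hoxd8 and on the opposite strand, was placed at position 74543658. Within 1000 bases of it the level was 9.44% of 2204 reads in Fbxl10 T/T and 1.55% of 3868 reads in WT, a difference of 7.89 points (6.65 to 9.22). At the CpGs shared with WT, it was 1.83% of 164 reads in Ring1B -/- and 0.733% in WT. It was 5.26% of 133 reads in Eed -/- and 0.693% in WT, a difference of 4.57 points (1.85 to 9.78). In Ezh2 -/- it was 6.15% of 179 reads and in WT 1.36%, a difference of 4.78 points (2.05 to 9.32). The 1-kb window holding this start, chr2:74543001-74544000, was at 7.31% in Fbxl10 T/T and 1.57% in WT. This was the smallest difference of the cluster between Fbxl10 T/T and WT at 5.75 points (4.56 to 7.05, adjusted p = 1.1e-24, Fisher's exact test). It was not called for its size. The window rested on 63 CpGs and 1928 reads in Fbxl10 T/T, the largest number of reads of any window of the cluster, and only 1 of its 52 well-read CpGs rose singly.

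In bins of 200 bases the step into this low stretch was seen. In Fbxl10 T/T the level was 58.6% at chr2:74542001-74542200 and 70.3% at chr2:74542201-74542400, where WT had 11.2% and 29.8%. It was 24.3% at chr2:74542801-74543000, where WT had 1.45%. It was 11.7%, 5.20%, 9.11%, 4.17% and 6.67% in the 5 bins that follow, where WT lay between 0.175% and 5.49%. The bins between these were not readable, so the step is placed only to the nearest readable bins.

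**Figure D3:**
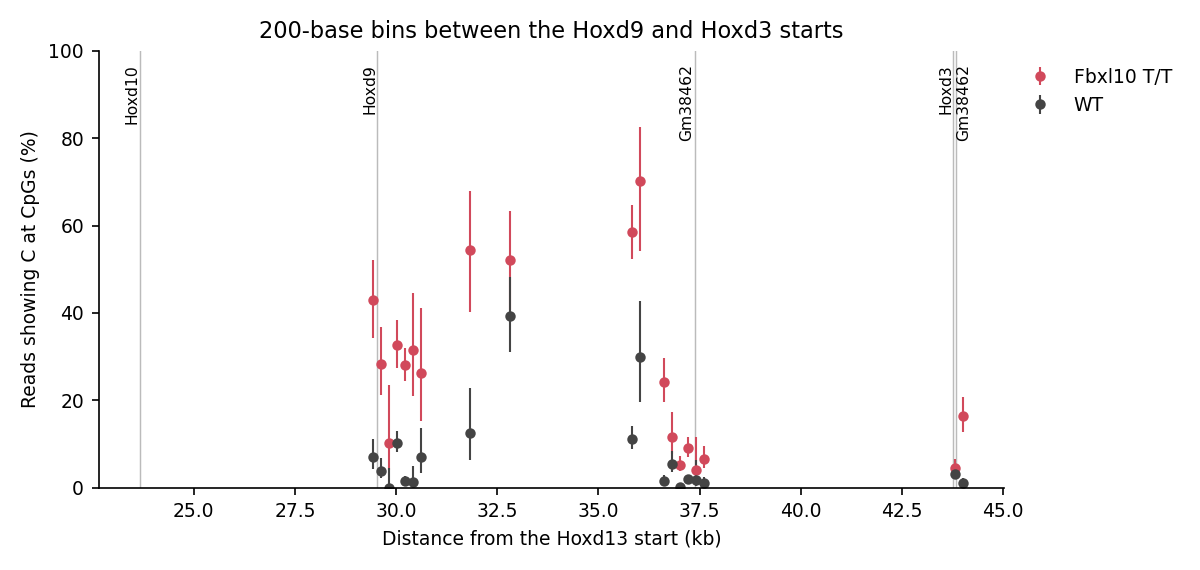
Methylation level (% of reads showing C) in 200-base bins with at least 30 reads in both libraries, against distance from the Hoxd13 start (kb), for Fbxl10 T/T (red) and WT (dark grey), with bars for 95% Wilson intervals and vertical lines at placed starts, those of Gm38462 included. Fbxl10 T/T is at 58.6% and 70.3% before the Gm38462 start inside Hoxd8, between 4.17% and 11.7% in the bins around it, and at 4.52% and 16.4% beside the Hoxd3 start.

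Hoxd3 and Hoxd4 take part in shaping the cervical vertebrae, and Hoxd4 is also used in the hindbrain. Around the Hoxd3 start the level was 8.89% of 877 reads in Fbxl10 T/T and 2.22% of 1484 reads in WT, a difference of 6.67 points (4.75 to 8.83). The window with these reads was not called for its size (adjusted p = 2.02e-12, Fisher's exact test), and 1 of its 18 well-read CpGs rose singly. It also holds another start of Gm38462, on the opposite strand, so the reads belong to both starts. The level was 3.03% in Ring1B -/- and 2.09% in WT, 1.22% in Eed -/- and 2.17% in WT, and 2.33% in Ezh2 -/- and 2.17% in WT. Within it, the bin at chr2:74550001-74550200 was at 4.52% in Fbxl10 T/T and 3.19% in WT, and the next at 16.4% in Fbxl10 T/T and 1.14% in WT. In that second bin lies the Hoxd3-side stretch shown above, whose last CpG alone stood at 31.1% of 74 reads in Fbxl10 T/T and 1.85% of 162 reads in WT. Around the less certain Hoxd4 start a single CpG was readable, with 33.3% of 18 reads methylated in Fbxl10 T/T and 69.2% of 13 reads in WT.

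Hoxd1, at the end of the cluster, is used in sensory neurons of the mouse. Around its start the level was 62.5% of 815 reads in Fbxl10 T/T and 4.53% of 1875 reads in WT, a difference of 57.9 points (54.4 to 61.3). It was 2.86% in Ring1B -/- (35 reads) and 4.55% in WT, 4.17% in Eed -/- (24 reads) and 1.45% in WT, and 6.67% in Ezh2 -/- (15 reads) and 3.14% in WT. The window with the start, chr2:74601001-74602000, was the last called one of the cluster. It was at 62.8% of 645 reads in Fbxl10 T/T and 5.05% of 1425 reads in WT (adjusted p = 5.36e-177, Fisher's exact test), and 21 of its 25 well-read CpGs rose singly. The stretch between the Hoxd4 and Hoxd1 starts, where Haglr, a long noncoding RNA gene, follows Hoxd4 in RefSeq's order, was at 61.8% in Fbxl10 T/T and 14.5% in WT. At the CpGs each mutant shared with WT, it was at 20.4% of 186 reads in Ring1B -/- and 15.0% in WT, a difference of 5.42 points (0.11 to 11.9). It was at 18 methylated of 240 reads in Eed -/- and 14.7% in WT, a difference of -7.18 points (-10.1 to -2.99), and at 13.8% of 145 reads in Ezh2 -/- and 14.1% in WT. The stretch included chr2:74588001-74589000, at 68.2% in Fbxl10 T/T and 4.55% in WT and the fifth largest rise, with all of its 8 well-read CpGs up singly. It also included chr2:74570001-74571000, at 33.5% in Fbxl10 T/T and 22.5% in WT, where the difference was under the 20 points required and its adjusted p was 0.0393 by Fisher's exact test. 1 window of this stretch with too few Ring1B -/- reads to be tested, chr2:74584001-74585000, showed 13 methylated of 27 reads in Ring1B -/- (48.1%) and 12.4% in WT at their 10 shared CpGs, and 66.4% in Fbxl10 T/T and 10.6% in WT at 22 shared CpGs. Of the other windows there not tested in Ring1B -/-, chr2:74591001-74592000 had 6 methylated of 28 reads (21.4%) and WT had 2.42%. The difference was 19.0 points (7.21 to 37.2). The window chr2:74572001-74573000 went the other way, with 5 of 11 reads in Ring1B -/- (45.5%) and 80.2% in WT. These windows were named after their values were seen.

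The placed starts other than Hoxd4, ordered by the level in Fbxl10 T/T within 1000 bases, ran Hoxd11, Hoxd1, Hoxd12, Hoxd10, Hoxd9, Hoxd13 and Hoxd3. The intervals overlapped between Hoxd11 and Hoxd1, between Hoxd1 and Hoxd12, between Hoxd12 and Hoxd10 and between Hoxd9 and Hoxd13. Those of Hoxd10 and Hoxd9, and those of Hoxd13 and Hoxd3, did not overlap. The order changed within overlapping pairs at other distances. Within 500 bases Hoxd1 (63.4%) stood above Hoxd11 (62.5%), and within 2000 bases Hoxd13 (32.7%) stood above Hoxd9 (30.1%).

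Single CpGs with at least 10 reads in both libraries gave a finer view, with calls at 25 points and an adjusted p below 0.05 (Fisher's exact test, Benjamini-Hochberg over all CpGs of the table). In the cluster 238 of 402 CpGs rose in Fbxl10 T/T (59.2%), against 16.5% of the 368305 tested across the table, and 1 fell, against 4.35%. The median CpG was at 52.1% in Fbxl10 T/T and 3.13% in WT. At least 50% methylation was reached by 213 of the CpGs in Fbxl10 T/T and by 18 in WT. Of 310 CpGs under 10% in WT, 294 were higher in Fbxl10 T/T and 188 rose, and together they stood at 38.6% in Fbxl10 T/T and 2.64% in WT. Of 74 CpGs at 10 to 50% in WT, 50 rose, with 56.0% in Fbxl10 T/T and 18.1% in WT. The 18 CpGs at 50% or more in WT stood at 64.2% in Fbxl10 T/T (60.2 to 67.9) and 66.9% in WT (63.7 to 69.9), and none of them rose. The highest of these CpGs had no room for the 25 points required, so that count is partly fixed in advance. These classes were set by the WT reads themselves, so counting error in WT alone raises the lowest class and lowers the highest. The CpG that fell, at position 74572714 between Hoxd4 and Hoxd1, was at 51.9% of 54 reads in Fbxl10 T/T and 82.4% of 74 reads in WT (adjusted p = 0.00218, Fisher's exact test). This CpG was named after its value was seen.

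In the Polycomb mutants no tested window of the cluster was called against WT. In Ring1B -/- none of 11 windows rose, against 1.3% across the table, and none fell, against 0.554%. In Eed -/- none of 11 rose, against 0.352%, and none fell, against 0.671%. In Ezh2 -/- none of 9 rose, against 0.211%, and none fell, against 0.787%. With 9 to 11 windows tested, these counts are near the backgrounds. The differences ran between -5.90 and 3.01 points in Ring1B -/-, between -6.18 and 9.38 in Eed -/- and between -7.96 and 15.0 in Ezh2 -/-. An adjusted p under 0.05 without the required size was found in 1 window of Eed -/-, that with the Gm38462 start inside Hoxd8, at 3.96% in Eed -/- and 0.601% in WT (adjusted p = 0.0458, Fisher's exact test), and in the Hoxd9 window of Ezh2 -/- given above. With CpGs inside CCGG kept, 2 of 17 windows rose in Ring1B -/-, against 3.12% across the table, and 1 of 16 in Ezh2 -/-, against 1.1%. That Hoxd9 window was called in Ezh2 -/- with the mean of CpG levels in place of summed reads, where 0.552% rose across the table. Methylation read at cytosines outside CpG, in the same interval and over the cytosines each library read, was higher in these libraries than in WT. It was 2.00% for Ring1B -/-, 3.88% for Eed -/-, 2.32% for Ezh2 -/- and 0.658% for WT, with 0.707% for Fbxl10 T/T, and its part in the CpG values was not tested.

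**Figure D4:**
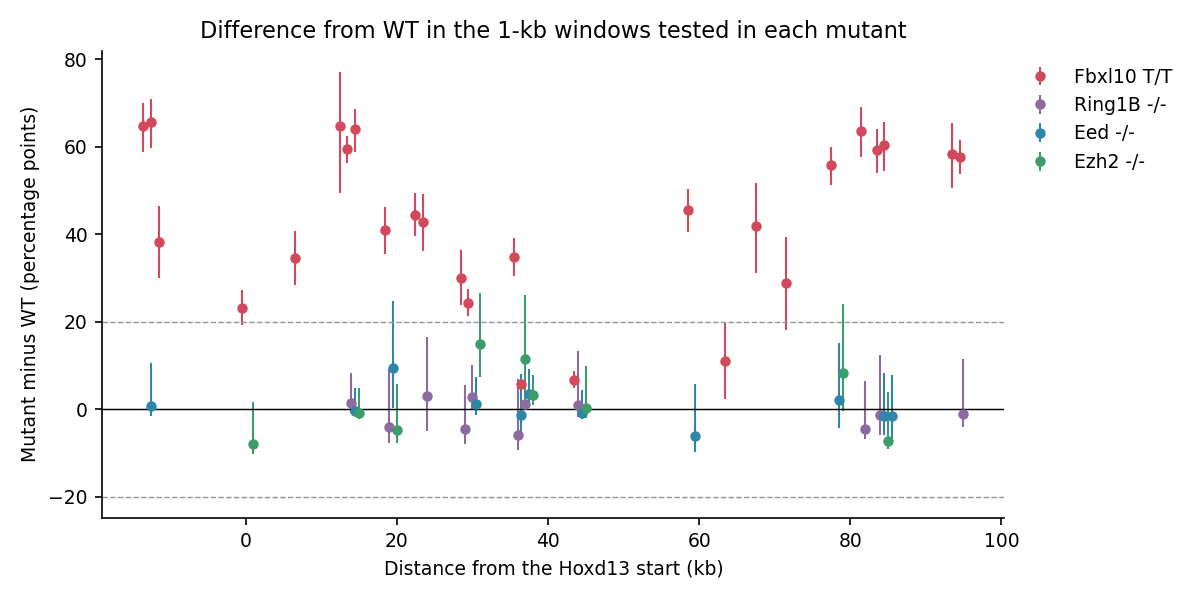
Difference in methylation level from WT (percentage points, mutant minus WT) in the 1-kb windows tested in each mutant, against distance from the Hoxd13 start (kb), with bars for 95% Newcombe intervals, dashed lines at the 20 points required for a call, and the mutants drawn side by side. Fbxl10 T/T exceeds 20 points in 23 of 26 windows, and the 3 Polycomb mutants lie between -7.96 and 15.0 points.

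Fbxl10 T/T was also set against each Polycomb mutant directly, without WT. Against Ring1B -/-, 9 of 11 windows were higher in Fbxl10 T/T, where 20.8% of the 8651 windows of the table were. Against Eed -/-, 9 of 11 were higher, where 22.1% of 9068 were. Against Ezh2 -/-, 6 of 9 were higher, where 21.7% of 8486 were. In the cluster no window was lower in Fbxl10 T/T than in a Polycomb mutant, against 0.451%, 0.298% and 0.189% across the table. The windows at the Gm38462 start inside Hoxd8 and at the Hoxd3 start were not called in any of these comparisons. At that Gm38462 start the levels were 6.81% in Fbxl10 T/T and 1.92% in Ring1B -/-, 6.60% in Fbxl10 T/T and 3.96% in Eed -/-, and 7.49% in Fbxl10 T/T and 4.64% in Ezh2 -/-. The second Hoxd9 window was called against Ring1B -/- and Eed -/- but not against Ezh2 -/-, where 28.7% in Fbxl10 T/T stood beside 17.2% in Ezh2 -/- (adjusted p = 0.166, Fisher's exact test). Over the whole cluster the difference was 35.3 points against Ring1B -/- (32.9 to 37.3), 34.8 points against Eed -/- (32.8 to 36.6) and 33.9 points against Ezh2 -/- (31.5 to 35.9).

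The few readable CpGs on both sides of the cluster showed no rise in Fbxl10 T/T. In flanks as long as the interval itself, 2 windows could be tested on the Evx2 side and 1 window on the Hoxd1 side. None of them rose in Fbxl10 T/T, where 25.5% rose across the table, and so few windows cannot be told from that share. Over the 23 CpGs read in both libraries the Evx2 side was at 1.87% in Fbxl10 T/T (641 reads) and 3.47% in WT. Over 22 such CpGs the Hoxd1 side was at 16.6% in Fbxl10 T/T (572 reads) and 17.8% in WT. The nearest starts that could be placed were those of Lnpk, an endoplasmic reticulum protein gene, and Mtx2, a gene of mitochondrial import. Around Lnpk, at 21 CpGs, the level was 0% of 622 reads in Fbxl10 T/T and 0.344% of 1162 reads in WT. Around Mtx2, at 20 CpGs, it was 3.70% of 486 reads in Fbxl10 T/T and 5.91% in WT. Most of the flank CpGs thus lay around these starts, and the rest of the flanks was hardly read. On both sides the flank level exceeded that around the start in both libraries, so the few other CpGs stood higher in Fbxl10 T/T and in WT. Of the 7 neighbour names listed, Mtx2 was placed by name and Lnp under its current name Lnpk.

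The other Hox clusters moved in the same direction. In Fbxl10 T/T, 19 of 28 tested windows of Hoxa rose, 18 of 29 of Hoxb and 19 of 24 of Hoxc, where 25.5% rose across the table, and none fell. The median window was at 59.4% in Fbxl10 T/T and 5.12% in WT in Hoxa, 52.8% in Fbxl10 T/T and 3.72% in WT in Hoxb, and 53.6% in Fbxl10 T/T and 10.9% in WT in Hoxc. The Hoxd share of 88.5% is the highest of the 4 as a value, and the difference between clusters was not tested, since windows of 1 library are not replicates. Of 31 further Hox and Evx genes, 3 starts were placed by the strict rule. Hoxa5 was at 4.60% in Fbxl10 T/T and 3.12% in WT, Hoxa6 at 53.7% in Fbxl10 T/T and 17.0% in WT, and Hoxa13 at 12.6% in Fbxl10 T/T and 0.552% in WT. Under the looser rule Hoxa11 was at 66.7% in Fbxl10 T/T and 3.71% in WT, and Hoxc4 at 62.7% in Fbxl10 T/T and 4.02% in WT. Hoxb1, with 2 readable CpGs, was at 55.3% in Fbxl10 T/T and 38.8% in WT. The other clusters thus held starts with high and with low levels. The low levels around Hoxd3 and inside Hoxd8 had counterparts of similar level around Hoxa5 and Hoxa13.

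**Figure D5:**
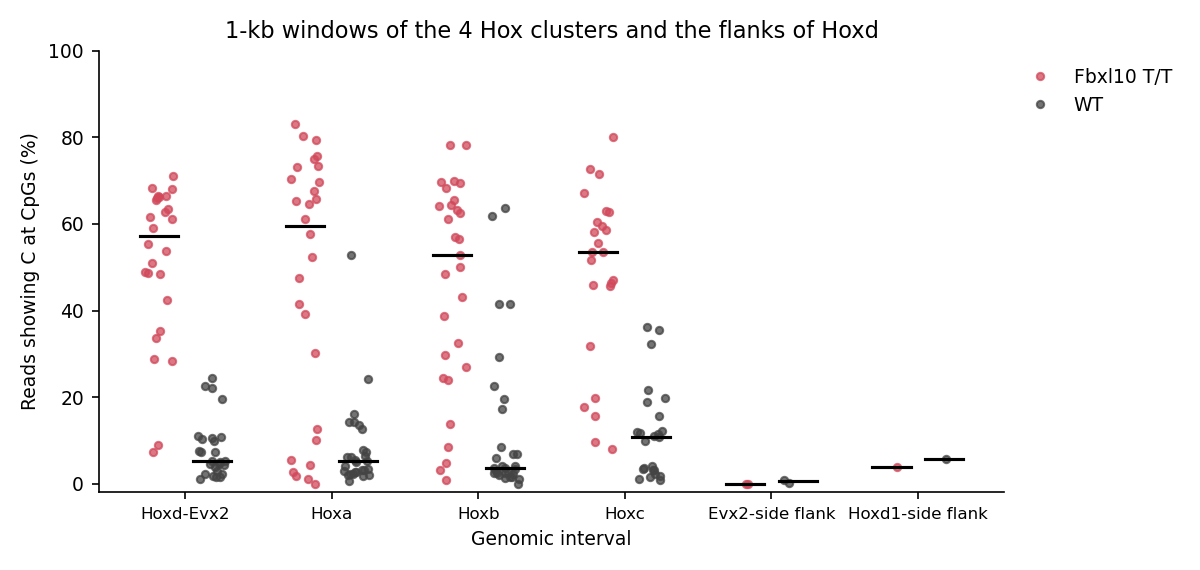
Methylation level (% of reads showing C) of each tested 1-kb window in the Hoxd-Evx2 interval, the other Hox clusters and the flanks of Hoxd, for Fbxl10 T/T (red) and WT (dark grey), with black lines at the medians and points spread sideways for legibility. The Hoxd-Evx2 windows have medians of 57.2% in Fbxl10 T/T and 5.27% in WT, and the 3 flank windows stay low in both libraries.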

How the data were processed

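Methylation was taken from 5 deposited tables, 1 library per genotype. Per the submitters' processing notes, BSMAP 2.74 and mm9 were used, and trimming and removal of duplicates are not given in the sources used here. Per the file headers, the deposited counts give for each cytosine the raw reads with C, the reads with either C or T, and the opposite-strand reads. Expected counts were obtained by the authors by scaling the C or T reads with the opposite strand. The deposited fraction divides the C reads by them, capped at 1. CpGs are listed once, with both strands summed. The main values used the raw counts, and the authors' interval bounds were not used.

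CpGs inside CCGG were left out because they lie at the cut ends, where bases are filled in during library preparation. Windows were tested with Fisher's exact test, Benjamini-Hochberg adjusted over the autosomes and X, at the thresholds given above. On simulated data, windows raised by 30 points were called in 98% of cases for Fbxl10 T/T, 98% for Ring1B -/-, 96% for Eed -/- and 90% for Ezh2 -/-. Windows raised by 20 points were called in 50%, 42%, 60% and 46% of cases in the same order, so rises near 20 points are often missed. A call itself requires an observed 20 points, so the latter rates reflect that threshold. The raised windows were drawn from those under 50% in WT. All these simulated rates may overstate the sensitivity on real data, where a read can cover several CpGs and reads are not independent molecules. They apply only to windows with enough reads to be tested and say nothing of the other windows of the cluster.

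RefSeq promoters (GRCm38.p6) were matched to the bases spelled by the tables' cytosine contexts, at least 40 bases with at least 98% equal and in 1 place only. A looser rule, at least 12 bases all equal, was added after the data were seen. All 13 promoters so placed on chromosome 2 kept 1 common spacing between the builds, and no coordinates were converted. All 10 genes are named, with the windows holding a start, the 5 largest and 5 smallest changes and the first and last called window. The genes, lists and interval were chosen with earlier results of these data known. Python 3.11.15, numpy 2.4.6, pandas 2.3.3, scipy 1.17.1, numba 0.67.0 and matplotlib 3.10.9 were used.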

Additional observations from a re-analysis of the deposited data

Results flagged for a closer look

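2 kinds of cytosine of the interval outside the comparisons stood above the level in WT, each over the cytosines that library read. At CpGs inside CCGG, methylation came to 57.8% for Fbxl10 T/T, 41.4% for Ring1B -/-, 35.8% for Eed -/- and 38.8% for Ezh2 -/-, while WT had 29.7%. At cytosines outside CpG, Ring1B -/- had 2.00% (1.56 to 2.56), Eed -/- had 3.88% (3.24 to 4.64) and Ezh2 -/- had 2.32% (1.81 to 2.98), while WT had 0.658% (0.604 to 0.716). Fbxl10 T/T had 0.707% (0.63 to 0.793) at these cytosines. Their part in the CpG levels of the cluster was not tested.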

How the results depend on the processing

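No paired analysis was possible because each genotype has 1 library. Of 170 counts of called windows under an alternative, 117 were 0 in the main setting and under the alternative, and 41 of the other 53 stayed within 1.5 times the main count. With only CpGs read in all 5 libraries, Fbxl10 T/T had 11 of 13 tested windows up against WT (22.4% across the table), and 5 of 7 against both Ring1B -/- (20.3%) and Eed -/- (21.3%). With at least 5 reads per CpG, 2 of 3 windows were up against Ring1B -/- (19.7% across the table), 4 of 4 against Eed -/- (20.1%) and 2 of 3 against Ezh2 -/- (19.9%). In both settings fewer windows could be tested.

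With CpGs inside CCGG kept, 14 of 18 windows were up in Fbxl10 T/T against Eed -/- and 11 of 16 against Ezh2 -/-, where 23.6% were up across the table in each. The same setting called 2 windows up in Ring1B -/- against WT, chr2:74584001-74585000 (55.6% of 36 reads in Ring1B -/- and 21.8% in WT) and chr2:74588001-74589000 (39.7% in Ring1B -/- and 17.9% in WT). It called 1 in Ezh2 -/-, chr2:74542001-74543000 (33.9% in Ezh2 -/- and 13.2% in WT). It moved the whole-cluster difference from WT to 33.2 points for Fbxl10 T/T, 6.95 for Ring1B -/-, 2.65 for Eed -/- and 5.08 for Ezh2 -/-, and that around Hoxd11 to 57.4 and around Hoxd1 to 49.8 points in Fbxl10 T/T. It moved the median over all windows of the table to 3.89 points in Ring1B -/-, 3.16 in Eed -/- and 2.89 in Ezh2 -/-. It also gave 3 single CpGs down in place of 1 in Fbxl10 T/T, where the main setting had 4.35% down across the table. For single CpGs the share across the table with CpGs inside CCGG kept was not computed, so this count has no background. For windows across the table, that setting gave 20% of 34695 up and 10.3% down in Fbxl10 T/T, where the main setting gave 25.5% and 2.65%. The cause was not tested.

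In Ezh2 -/- 1 window was up, chr2:74536001-74537000 beside Hoxd9, with the mean of CpG levels (26.5 points, 0.552% of windows up across the table) or with a threshold of 10 points (15.0 points, 1.72% up). This window held 58 reads over 29 CpGs in Ezh2 -/-. With at least 10 reads per CpG the whole-cluster difference in Ezh2 -/- was -5.16 points on 2 CpGs, and no window of the cluster could be tested in a Polycomb mutant. The alternatives for the comparisons without WT and for single CpGs were chosen after the data were seen. The Polycomb mutants had a median of 2 reads per CpG in the cluster, which limits their precision.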
